A study of Mus musculus with 33 samples.

Results

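The 49 genes described here encode plasma proteins that hepatocytes make for defence and clotting. They were chosen by symbol, from 3 classes of liver products: 19 acute phase genes, 14 complement genes and 16 coagulation genes. Each gene was read from the probe set that carries its symbol alone and has the highest mean over all columns, and 47 of the 49 could be read in this way, among 18193 genes in all. C3 was not analysed here, and C4b shares its probe set with C4a and was left out. That leaves 19 acute phase, 12 complement and 16 coagulation members. The acute phase class was set against the complement and clotting factors, which are usually described as constitutive liver products.

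The liver samples came from mice of 12 months on a mixed background of FVB/NT, 129S1/Svlmj and C57BL/6NT, which all groups share. There were 7 arrays of wildtype normal liver (wt), 5 of normal liver from E2f3a knock-out mice (3aKO), 5 of liver carcinoma from E2F1 knock-in mice (1KI) and 4 of liver carcinoma from E2F3b knock-in mice (3bKI). E2F proteins are transcription factors best known for driving genes of the cell cycle, and E2f3a and E2f3b are isoforms of the gene E2f3. The labels give no sex, no promoter and no locus for the knock-ins, and genotype and tumour status cannot be told apart in 1KI or 3bKI. Values are log2 expression per probe set, and the authors normalized them in 2 runs: wt, 3aKO and 1KI together, then wt, 3aKO and 3bKI together. The same wt and 3aKO arrays thus stand in both runs, and the tumour groups were not compared with each other. Nothing states that the arrays of a group came from separate animals, so p-values measure the spread between these arrays, which may be technical in part. Sex-linked genes gave arrays of both sexes in wt, 3aKO and 1KI, so each of these groups holds more than a single animal.

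In an acute phase response, the cytokines IL-6, IL-1 and TNF reach hepatocytes, where STAT3, C/EBP and NF-kappaB factors raise the output of a set of plasma proteins. In mice, serum amyloid A (Saa1, Saa2) is among the most inducible, and haptoglobin (Hp), orosomucoid (Orm1, Orm2), lipocalin 2 (Lcn2) and the protease inhibitor Serpina3n are also raised, while C-reactive protein (Crp) responds little. Complement is a cascade of plasma proteins that marks and lyses targets: the lectin pathway (Mbl1, Mbl2, Masp1, Masp2) starts it, the convertases (C2, Cfb) amplify it, and C6, C8 and C9 take part in the membrane attack complex. The coagulation factors form a protease cascade that ends in thrombin (F2) and fibrin, held in check by inhibitors such as antithrombin (Serpinc1).

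The promoter stretches below are those of the genes on which the results turn: the serum amyloid pair, Orm2 and Lcn2 had the widest ranges among wt livers, and Serpina3n and Klkb1 passed the test in a tumour group. Each is the 250 bases before the transcript start in RefSeq's annotation of GRCm38.p6, on the gene's strand, with capitals at matches to the C/EBP motif TTNNGNAA or its reverse complement TTNCNNAA. Saa1 lies at chr7:46742981-46743230 (minus strand), Saa2 at chr7:46751583-46751832 (plus), Orm2 at chr4:63362199-63362448 (plus), Lcn2 at chr2:32387740-32387989 (minus), Serpina3n at chr12:104406458-104406707 (plus) and Klkb1 at chr8:45294836-45295085 (minus).
Saa1: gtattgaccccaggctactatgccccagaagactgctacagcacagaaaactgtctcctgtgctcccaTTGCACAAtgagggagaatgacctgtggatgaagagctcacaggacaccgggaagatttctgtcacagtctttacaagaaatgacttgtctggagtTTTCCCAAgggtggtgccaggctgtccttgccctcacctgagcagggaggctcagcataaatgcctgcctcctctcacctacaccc
Saa2: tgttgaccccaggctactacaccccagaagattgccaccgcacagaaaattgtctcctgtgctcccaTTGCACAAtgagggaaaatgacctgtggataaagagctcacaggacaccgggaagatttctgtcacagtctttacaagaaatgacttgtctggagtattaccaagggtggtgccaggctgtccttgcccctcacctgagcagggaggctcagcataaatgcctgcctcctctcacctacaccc
Orm2: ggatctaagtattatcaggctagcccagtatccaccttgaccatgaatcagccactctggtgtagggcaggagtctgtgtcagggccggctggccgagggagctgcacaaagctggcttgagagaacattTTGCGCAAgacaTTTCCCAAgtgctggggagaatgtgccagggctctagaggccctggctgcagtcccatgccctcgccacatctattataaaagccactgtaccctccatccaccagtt
Lcn2: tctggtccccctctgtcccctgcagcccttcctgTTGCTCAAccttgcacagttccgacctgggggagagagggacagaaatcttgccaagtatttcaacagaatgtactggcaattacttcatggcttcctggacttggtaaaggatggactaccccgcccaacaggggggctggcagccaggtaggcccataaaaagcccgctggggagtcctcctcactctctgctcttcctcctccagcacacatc
Serpina3n: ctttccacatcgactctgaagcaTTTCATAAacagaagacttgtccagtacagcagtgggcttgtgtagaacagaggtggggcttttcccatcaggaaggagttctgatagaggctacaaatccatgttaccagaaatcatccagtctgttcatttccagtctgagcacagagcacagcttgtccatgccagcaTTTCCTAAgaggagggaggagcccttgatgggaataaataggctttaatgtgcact
Klkb1: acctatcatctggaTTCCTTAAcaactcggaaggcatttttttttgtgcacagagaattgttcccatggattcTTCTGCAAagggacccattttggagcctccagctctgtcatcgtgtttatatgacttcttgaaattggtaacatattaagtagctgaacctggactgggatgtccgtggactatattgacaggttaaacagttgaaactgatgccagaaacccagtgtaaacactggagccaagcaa
The Saa1 and Saa2 stretches are near copies, equal in 238 of 251 aligned columns (94.8%), and the C/EBP match at position -182 of Saa1 recurs at -183 of Saa2. The other Saa1 match, TTTCCCAA, is not in the Saa2 window. Whether a probe set of one of these genes also takes signal from the other was not tested, so their values are reported as uncertain. Saa1 has a second probe set, which differed between 3aKO and wt by -2.66 against -2.37 for the one used.

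In RefSeq windows of 250 bases before to 50 after the start, 37 of the 47 genes had an entry, some with more than 1 start. On both strands, the C/EBP motif occurred in 13 of 17 acute phase promoters, 3 of 9 complement promoters and 8 of 13 coagulation promoters, beside 40.7% of all 32851 promoters. The STAT motif TTCNNNGAA, which is its own reverse complement, occurred in 4 of 17, 2 of 9 and 2 of 13, beside 8.30% of all promoters. The acute phase genes with a STAT match were Apcs, Itih4, Fga and Fgb. The NF-kappaB motif was in none of these windows and in 8.46% of all promoters. A match describes the letters in the window and is not a binding site.

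Some facts of the arrays bear on the results. On the first principal component of the first run, 1KI arrays 3 and 4 lay at 61.0 and 69.8, while the other 15 lay between -17.0 and 5.08. Their mean over 12 hepatocyte marker genes was 12.82 and 12.12, against 13.34 to 13.54 in the other 1KI tumours and 13.14 to 13.54 in wt. Albumin (Alb), the main plasma protein of hepatocytes, was at 14.80 or more on every array, so the liver label holds for all of them. Xist and the Y-linked genes Eif2s3y and Kdm5d split the arrays by sex, into 3 female and 4 male in wt, 3 female and 2 male in 3aKO, and 2 female and 3 male in 1KI. In 3bKI, 3 were female, and array 2 was unclear, with Xist at 6.56 and a Y-linked mean of 2.95. The E2f1 probe set averaged 6.02 ± 0.15 (SD, n = 7) in wt and 6.19 ± 0.24 (SD, n = 5) in 1KI, with overlapping ranges. The E2f3 probe set averaged 6.84 ± 0.18 (SD) in wt, 6.64 ± 0.21 in 3aKO and 7.41 ± 0.28 in 1KI. All 1KI values, from 7.14 up, were above the highest wt value at 7.03. In the second run it averaged 6.82 ± 0.20 in 3bKI and 6.71 ± 0.19 in wt, with overlapping ranges. The E2f3 probe set is not annotated by isoform here, so it does not check the knock-out of E2f3a or the knock-in of E2F3b.

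In normal wt liver the acute phase class had the highest median spread between arrays. The median standard deviation over the 7 wt arrays was 0.44 for acute phase members, 0.27 for complement, 0.17 for coagulation and 0.18 for all genes. An SD over 1 was found in 4 of 19 acute phase and 3 of 12 complement members in wt, beside 1.01% of all genes. No coagulation member had one. The 3 complement members were C6, C8a and C8b, whose values split by sex as described further on. The order of the classes differed in 3aKO and 1KI. The median SD was 0.19 for acute phase and 0.22 for complement members in 3aKO, and 0.25 and 0.48 in 1KI. In 3bKI these medians were 0.35 and 0.31, in the same order as in wt. Saa2 spanned 5.80 on the log2 scale in wt, a 55.7-fold range, and Lcn2, an iron-carrier binder, spanned 6.07. Orm2 spanned 5.24 and Saa1 4.36. At the other end, Serpinc1 (antithrombin) spanned 0.12 and F2 (prothrombin) 0.19.

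One wt array had most of the highest acute phase values. Of the 19 acute phase members, wt array 4 had the highest wt value in 18, and wt array 6 had the lowest in 10. In the genes of widest range wt array 2 came near wt array 4. It was at 13.53 against 14.00 for Saa1, 13.82 against 14.04 for Saa2, 11.04 against 11.47 for Orm2 and 12.51 against 13.28 for Lcn2. As the median over the class of each gene's difference from the wt mean, acute phase members were at 0.77 in wt array 4, 0.21 in wt array 2 and between -0.30 and 0.09 in the other 5. The same medians for coagulation members were between -0.14 and 0.16. For the 3aKO livers the acute phase medians lay between -0.48 and -0.20, and those of wt arrays 5 and 6 fell inside that range.

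**Figure D1:**
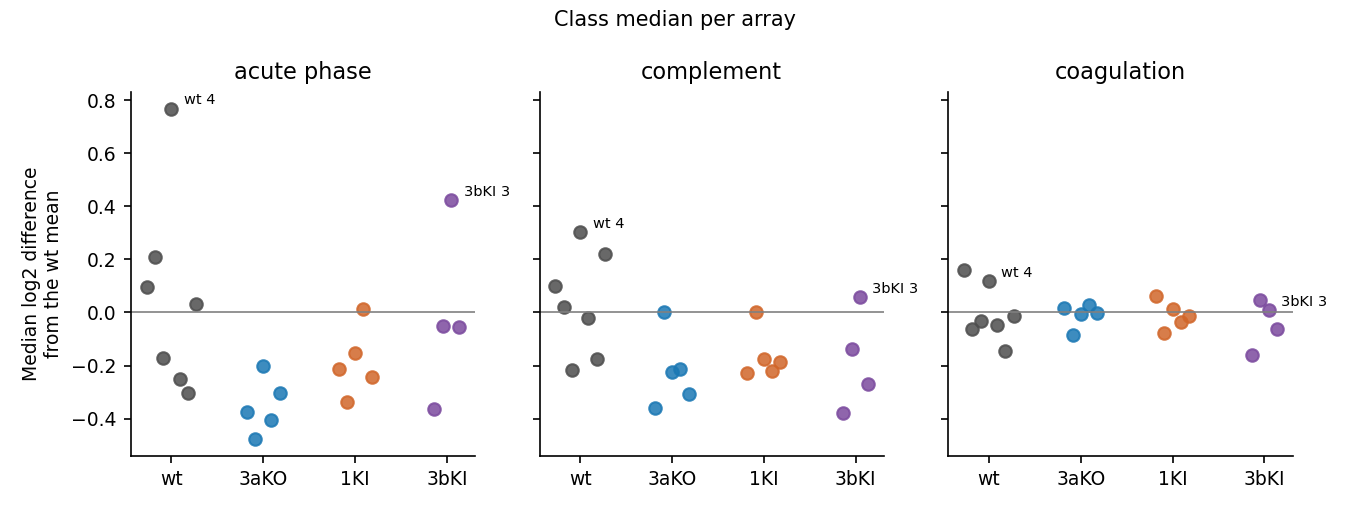
Each point is 1 array; the vertical axis is the median log2 difference from the wt mean of the same normalization run, over acute phase (left), complement (middle) and coagulation members (right). Acute phase medians reach 0.77 in wt array 4 and 0.42 in 3bKI array 3, while coagulation medians stay between -0.16 and 0.16.

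The suppressor Socs3, an IL-6 target and no member (chosen after its values were seen), was between 6.98 and 9.05 in wt. It was at 8.71 or more in wt arrays 1, 2, 4 and 7 and at 7.70 or less in arrays 3, 5 and 6. Il6 itself was between 2.26 and 2.96 on every array of all groups.

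In normal livers without E2f3a, no member passed the test against wt. All 19 acute phase members had a mean below that of wt, with a median log2 difference of -0.36, while the median of all genes was 0.0017 and 49.5% of genes were below 0. Complement members had a median of -0.22 (10 of 12 below 0) and coagulation members -0.02 (8 of 16). At an adjusted p under 0.05 by limma, 0 of the 18193 genes were called (0%). At an unadjusted p under 0.05, 11 of the 47 members were lower, 9 acute phase and 2 complement, beside 3.84% of all genes. In whole tissue, fewer cells of a type and less RNA per cell cannot be told apart.

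Saa2 and Saa1, serum amyloid A, had the largest differences of the 47. Saa1 had values of 9.64, 11.27 and 14.00 in wt (lowest, median, highest), and 9.02, 8.90, 10.36, 8.38 and 10.33 in 3aKO. Wt arrays 2, 3 and 4 were the highest, and the groups overlapped. The difference was -2.37 ± 0.72 (SE), 5.19-fold lower in 3aKO (limma, adjusted p = 0.641). Saa2 had 8.24, 9.71 and 14.04 in wt and 7.53, 7.24, 9.04, 6.93 and 9.13 in 3aKO, a difference of -2.78 ± 1.04 (limma, adjusted p = 0.641). The same 3 wt arrays were its highest, and 3 of the 5 knock-out livers were below every wt liver. Saa4, which the liver makes constitutively, had 12.34, 12.66 and 13.63 in wt and 11.91, 12.01, 12.19, 12.27 and 12.50 in 3aKO, a difference of -0.59 ± 0.19 (limma, adjusted p = 0.641). Saa3, which macrophages and adipocytes also make, was at 8.17 to 11.14 in wt and 8.17 to 9.41 in 3aKO, so that the groups overlapped almost wholly.

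Among the metal and haem binders, haptoglobin (Hp), which binds free haemoglobin, had 14.11, 14.38 and 14.80 in wt and 13.98, 13.93, 14.09, 14.03 and 14.12 in 3aKO, a difference of -0.36 ± 0.11 (limma, adjusted p = 0.641). Only the highest 3aKO value reached the lowest wt value. Lcn2 had 7.21, 10.61 and 13.28 in wt and 8.75, 6.16, 10.08, 6.83 and 9.07 in 3aKO, a difference of -2.37 ± 0.95 (limma, adjusted p = 0.655). Hemopexin (Hpx), which binds free haem, differed by -0.16 ± 0.07 and ceruloplasmin (Cp), the copper carrier, by -0.05 ± 0.11.

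Of the inhibitors and orosomucoids, Serpina3n had 11.18, 12.08 and 12.86 in wt and 11.49, 11.18, 11.05, 11.02 and 11.28 in 3aKO, a difference of -0.78 ± 0.25 (limma, adjusted p = 0.641). Of the 7 wt livers, 5 lay above every knock-out liver. Orm2 had 6.23, 8.44 and 11.47 in wt and 6.54, 6.56, 8.14, 6.50 and 7.23 in 3aKO, a difference of -1.72 ± 0.78. The fibrinogen chains differed little, with Fga at -0.16 ± 0.10, Fgb at -0.11 ± 0.09 and Fgg at -0.11 ± 0.09. Crp differed by -0.01 ± 0.12.

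Complement members with an unadjusted p under 0.05 were the convertase components C2 and Cfb. C2 had 9.98, 10.29 and 10.88 in wt and 9.94, 9.76, 9.87, 10.02 and 10.11 in 3aKO, a difference of -0.44 ± 0.15 (limma, adjusted p = 0.641). Its other 2 probe sets gave -0.49 and -0.42. Cfb, the factor B of the alternative convertase, differed by -0.23 ± 0.09. C8a (-1.28 ± 0.79), C8b (-0.98 ± 0.66) and C6 (-0.94 ± 0.67), parts of the attack complex, had the largest complement differences. Their values split by sex as described further on, and 4 of 7 arrays were male in wt and 2 of 5 in 3aKO. C8a means in wt and 3aKO were 12.77 and 12.06 in males, and 10.33 and 9.36 in females. For C8b they were 12.32 and 11.52, and 9.87 and 9.48. For C6 they were 10.79 and 9.84, and 8.33 and 8.10. The part of sex in these differences was not tested. The lectins were at -0.20 ± 0.13 (Mbl1) and 0.12 ± 0.14 (Mbl2). No coagulation member reached an unadjusted p of 0.05, and their differences ran from -0.35 (F11) to 0.09 (F10). F2 differed by 0.0003 ± 0.06 and Serpinc1 by 0.03 ± 0.05.

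The acute phase values were also read without wt array 4 and within each sex. Without wt array 4, 16 of 19 acute phase members were below 0 with a median of -0.25. Of them 6 had an unadjusted p under 0.05 by limma, where 9 had with that array. That fit had fewer arrays, and its share over all genes is not given here. Without that array Saa1 differed by -2.004 ± 0.65 and Hp by -0.29 ± 0.08. Among male arrays the acute phase median was -0.56 (19 of 19 below 0), and among female arrays -0.12 (14 of 19), from 2 male and 3 female 3aKO arrays. The share of all genes below 0 is not given for the set without wt array 4 or for either sex. The interaction of sex and genotype passed the test for 0 of the 47 members, as for 0% of all genes, with a smallest adjusted p of 0.999 by limma. At an unadjusted p under 0.05 by limma, it gave 2 of the 47 members, F11 and Serpinf2 of the coagulation class, both below 0. Over all 18193 genes it gave 255 below 0 and 324 above. Hepatocyte marker means were 13.24 to 13.51 in 3aKO, inside the wt range, and neutrophil marker means were 5.04 to 5.57 in wt and 5.07 to 5.61 in 3aKO. The 3′ minus 5′ actin probe difference, a sign of RNA integrity, was 0.63 to 1.38 in wt and 1.09 to 1.35 in 3aKO. The part of RNA quality in these differences was not tested.

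**Figure D2:**
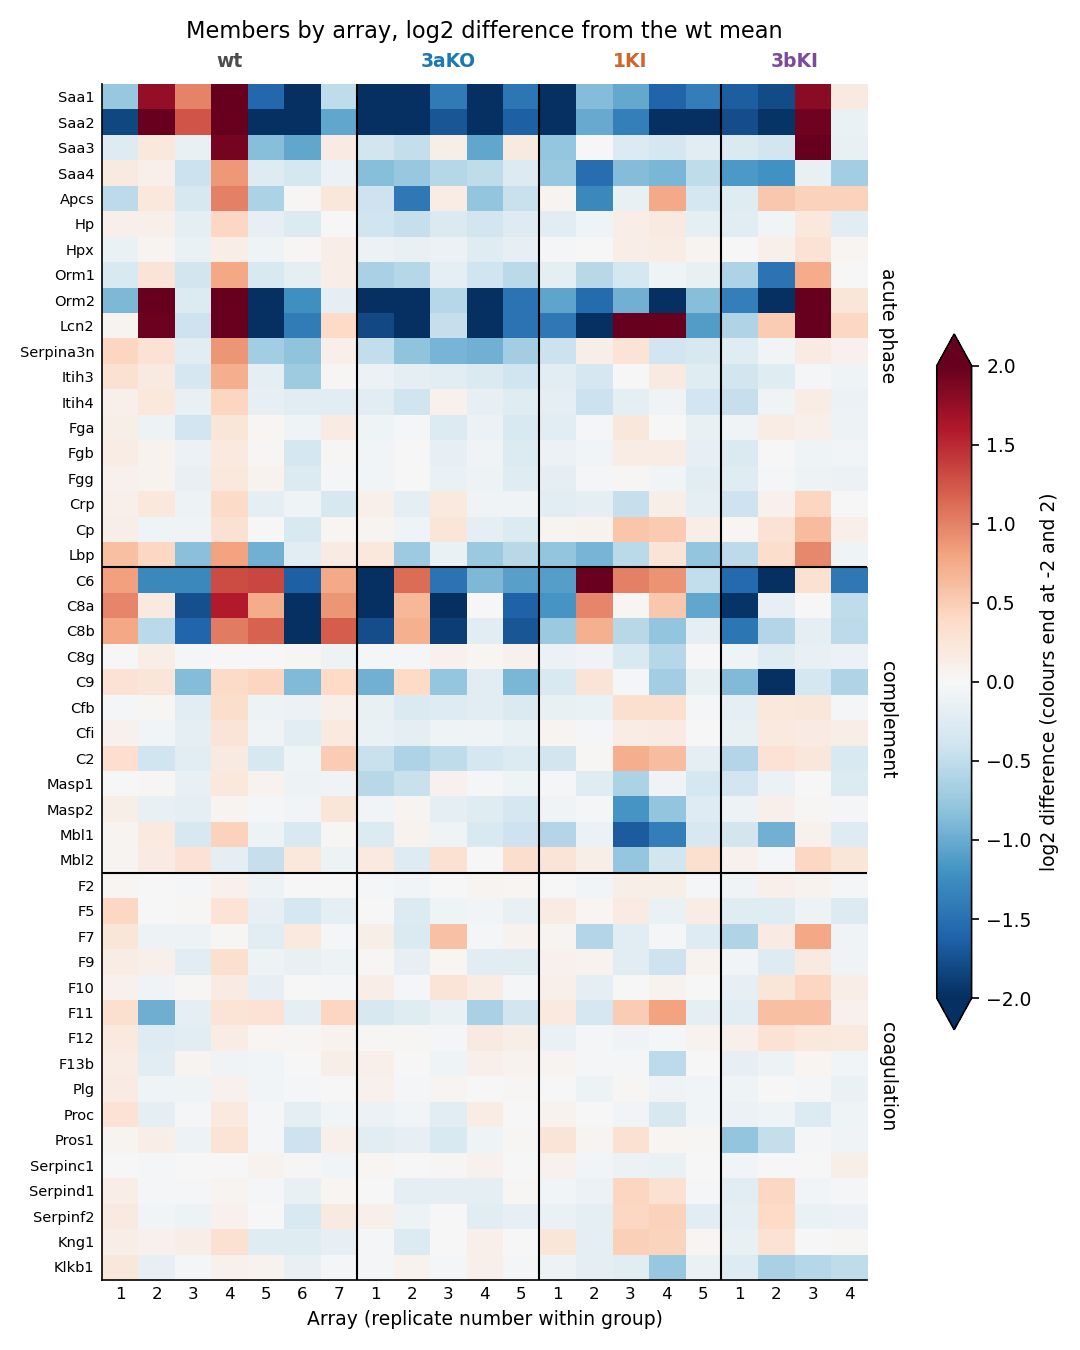
Rows are the 47 members by class, columns are the 21 arrays by group, and colour is the log2 difference from the wt mean of the same run, with colours ending at -2 and 2. The acute phase rows are mostly red in wt array 4 and 3bKI array 3 and blue across 3aKO, and the coagulation rows are pale.

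In 1KI tumours no member passed the test against wt, where 44 of 18193 genes did (0.242%). The acute phase difference from wt was -0.18 with 16 of 19 below 0, beside -0.03 for all genes. Complement members had a median of -0.16 and coagulation members -0.02. At an unadjusted p under 0.05, 6 of the 47 were lower by limma, 1 acute phase, 4 complement and 1 coagulation, beside 10% of all genes, so the share among the members was near that of the background. Markers of other cells also differed from wt in 1KI: 10 of 12 macrophage, 11 of 11 neutrophil and 11 of 12 lymphocyte markers were below 0, none past the test. Of 10 stellate cell markers, 9 were above 0 and Pdgfrb passed. The list means were 8.05 to 9.56 for macrophage markers in 1KI against 8.88 to 9.76 in wt, 4.94 to 5.18 against 5.04 to 5.57 for neutrophil markers, and 8.07 to 8.57 against 7.39 to 7.86 for stellate markers. Their part in the member values was not tested.

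Saa4 was the acute phase member with the most even difference. It had 12.34, 12.66 and 13.63 in wt and 12.01, 11.24, 11.90, 11.85 and 12.26 in 1KI, a difference of -0.91 ± 0.22 (limma, adjusted p = 0.104). Every 1KI value lay below every wt value, which held for 1 of the 47 members and for 0.863% of all genes. Its second probe set gave -0.96. In a fit of the 3 groups of the run together, Saa4 had an adjusted p of 0.0343, the lowest over its alternatives, which reached up to 0.516. Saa1 was at 9.63, 10.90, 10.75, 10.17 and 10.40 in 1KI, a difference from wt of -1.40 ± 0.69 (limma, adjusted p = 0.285), and Saa2 differed by -1.87 ± 1.02. Without wt array 4 these became -1.03 ± 0.62 and -1.32 ± 0.91, and the acute phase median became -0.03 with 11 of 19 below 0.

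Of the 4 complement members lower at an unadjusted p under 0.05 by limma, 3 belong to the lectin pathway (Mbl1, Masp1, Masp2) and the fourth is C8g (-0.21 ± 0.09). Mbl1, a mannose-binding lectin, had 11.47, 11.83 and 12.25 in wt and 11.21, 11.68, 10.13, 10.41 and 11.48 in 1KI, a difference of -0.81 ± 0.25 (limma, adjusted p = 0.156). Its protease Masp2 had 10.64, 10.80 and 11.08 in wt and 10.76, 10.81, 9.65, 10.04 and 10.58 in 1KI, a difference of -0.47 ± 0.18. The second probe set of Masp2 gave -1.05. For both genes 1KI arrays 3 and 4 were the lowest of all 17 arrays in the run, and these are the tumours with the lowest hepatocyte marker means. Among the tumours Mbl2 was also lowest there, at 12.42 and 12.81, against 13.31 to 13.51 in the other 3. One male wt liver was at 12.73, below 1KI array 4. Both of these tumours were read as male, while 2 of the other 3 were female, and Mbl2 was lower in males in normal liver. The part of sex in these Mbl2 values was not tested. Without these 2 tumours Mbl1 differed from wt by -0.34 ± 0.17 and Masp2 by -0.12 ± 0.10, and 0 of 12 complement members had an unadjusted p under 0.05 by limma. With these tumours left out the fit had fewer arrays, and its share over all genes is not given here. The highest of the 5 Masp1 probe sets gave -0.27 ± 0.11 and the other 4 gave 0.06 to 0.31, so that Masp1 had no single direction.

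Coagulation differences in 1KI ran from -0.28 to 0.21. Klkb1, plasma prekallikrein of the contact system, had 11.68, 11.83 and 12.07 in wt and 11.75, 11.65, 11.63, 11.09 and 11.71 in 1KI, a difference of -0.28 ± 0.11 (limma, adjusted p = 0.219). The lowest value was that of 1KI array 4, and without arrays 3 and 4 the difference was -0.14 ± 0.09. F2 differed by 0.03 ± 0.06 and Serpinc1 by -0.04 ± 0.06. Cp was the one acute phase member higher at an unadjusted p under 0.05, by 0.27 ± 0.12, and its 7 other probe sets were also above 0.

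The same 1KI arrays were also set against 3aKO, so this comparison shares its tumours with the one above. The acute phase median was 0.20 with 15 of 19 above 0, beside -0.02 for all genes, 0.25 for complement (7 of 12) and 0.002 for coagulation (8 of 16). No member passed the test, and neither did any gene (0%). C6 (1.39 ± 0.69) and C8a (1.15 ± 0.71) had the largest complement differences, with 3 male arrays of 5 in 1KI. C6 means in 1KI and 3aKO were 11.03 and 9.84 in males, and 8.94 and 8.10 in females. For C8a they were 12.24 and 12.06, and 10.61 and 9.36. The part of sex in these 1KI differences was not tested. At an unadjusted p under 0.05, 12 of the 47 members were higher by limma, 6 acute phase, 3 complement and 3 coagulation, beside 6.00% of all genes. Without 1KI arrays 3 and 4 the acute phase median was 0.05 with 11 of 19 above 0. Then 3 acute phase members, rather than 6, had an unadjusted p under 0.05 by limma, in a fit with fewer arrays. Its share over all genes is not given here.

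Serpina3n had 11.56, 12.10, 12.25, 11.59 and 11.67 in 1KI, all above the highest 3aKO liver at 11.49, a difference of 0.63 ± 0.15 (limma, adjusted p = 0.196). Without 1KI arrays 3 and 4 it was 0.57 ± 0.15. Hp had 14.18, 14.30, 14.52, 14.56 and 14.19 in 1KI, again all above 3aKO, a difference of 0.32 ± 0.09 (limma, adjusted p = 0.231). Hpx (0.21 ± 0.06) and the complement inhibitor Cfi (0.19 ± 0.07) were likewise separate from 3aKO. These 4 of 47 members stood beside 1.45% of all genes whose 1KI values were all higher. The reverse held for Klkb1 alone among the members, at -0.30 ± 0.12, beside 1.96% of all genes.

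Lcn2 had the largest SD of the 47 members within 1KI, 2.34 (n = 5). It had 9.11, 8.55, 13.29, 13.26 and 9.43 in 1KI, so that arrays 3 and 4 were at the top of the wt range and the other 3 were below the wt median of 10.61. The difference from 3aKO was 2.55 ± 1.11 (limma, adjusted p = 0.348) with those tumours and 0.85 ± 0.81 without them. Saa1 and Saa2 in 1KI arrays 3 and 4, at 10.75 and 10.17 and at 9.40 and 8.26, did not show the same split. Saa1 lay within the range of the other 3 tumours, and Saa2 in array 4 was the lowest of the group.

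**Figure D3:**
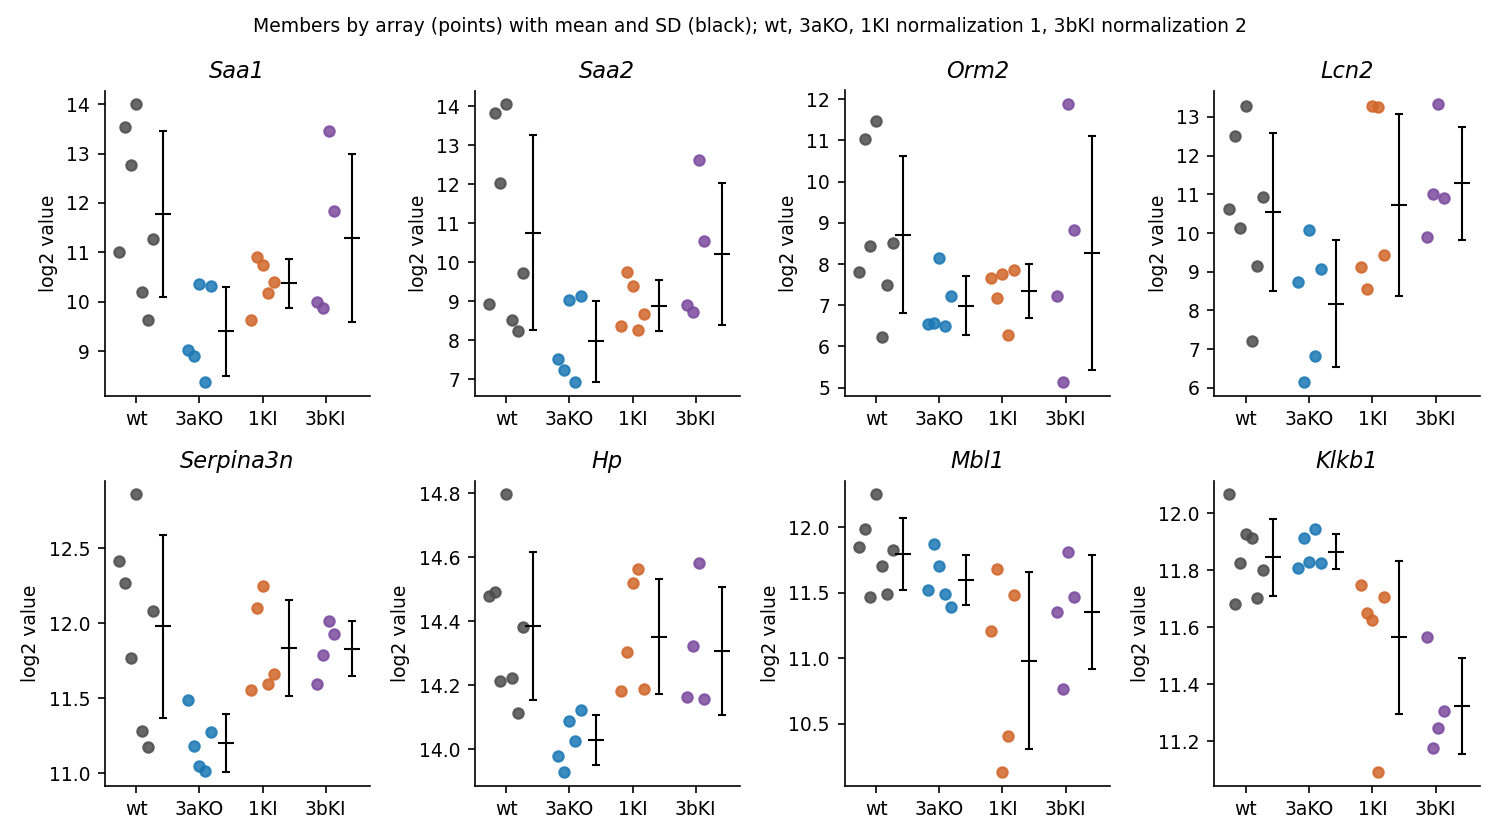
Each panel is 1 member, each point 1 array on the log2 scale, with the group mean and SD in black; wt, 3aKO and 1KI are from the first run and 3bKI from the second, so 3bKI is not on quite the same scale. Saa1, Saa2, Orm2 and Lcn2 spread widely in wt, and the 3aKO points of Hp lie below nearly all others. The Klkb1 mean is lowest in 3bKI, while its lowest single point is 1KI array 4.

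In 3bKI tumours 1 member passed the test against wt. Klkb1 had 11.61, 11.82 and 12.11 in the 7 wt livers of the second run and 11.56, 11.18, 11.25 and 11.31 in 3bKI. Every tumour lay below every wt liver. It fell by 0.49 ± 0.11 on the log2 scale, 1.41-fold (limma, adjusted p = 0.0424). One called member in 47 was a share near that of all genes, of which 2.07% were called, and for 2.38% of genes all 3bKI values were lower, as for this 1 member. The call was lost in 11 of 20 alternatives, with adjusted p from 0.0105 to 0.353, among them without wt array 1, 2, 3, 4 or 5 (0.0529 to 0.0879), without 3bKI array 2, 3 or 4 (0.0888 to 0.112) and with sex as a covariate (0.353). Of the 4 tumours, 3 were female, and in normal liver Klkb1 was higher in males than in females by 0.16 (limma, not past the adjusted threshold).

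The acute phase class did not lie apart from wt in 3bKI, with a median of -0.07 and 11 of 19 below 0. The median was above 0 without wt array 2 (0.03), wt array 4 (0.07), 3bKI array 1 (0.04) or 3bKI array 2 (0.0136), and with sex as a covariate (0.14). Complement members had a median of -0.17 with 9 of 12 below 0, and of 0.05 with 4 of 12 below 0 when sex was a covariate and array 2 was left out. C6 differed by -1.20 ± 0.67. Coagulation members had a median of 0.0022. At an unadjusted p under 0.05, 3 of 47 members were lower by limma, Saa4, C9 and Klkb1, beside 10.9% of all genes. Saa4 differed by -0.80 ± 0.26 (limma, adjusted p = 0.115). Cp was above wt by 0.27 and did not pass the test, and its other probe sets gave 0.04 to 1.14. The probe set at 1.14 had a mean of 12.15 over all columns, and the one at 0.04 a mean of 5.90. C9, which forms the pore of the attack complex, had 12.17, 13.43 and 13.51 in wt and 12.24, 10.64, 12.77 and 12.51 in 3bKI, a difference of -1.08 ± 0.40 (limma, adjusted p = 0.157). The value of 3bKI array 2 was the lowest of all arrays, and without it the difference was -0.61 ± 0.32. The other 3 tumours were female, a sex in which C9 was lower in normal liver as well. The part of sex in the C9 difference was not tested.

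One tumour had most of the highest acute phase values of this group. Of the 19 acute phase members, 3bKI array 3 had the highest value of the group in 15 and array 1 the lowest in 11. Saa1 was at 10.004, 9.87, 13.45 and 11.83, Saa2 at 8.90, 8.72, 12.63 and 10.55, and Orm2 at 7.21, 5.14, 11.88 and 8.83. Saa3 was at 8.87, 8.80, 11.97 and 9.01, so that only array 3 was high. This tumour also had the highest macrophage marker mean, 10.41 against 8.73 to 9.25 in the other 3. Of genes picked after their values were seen, the neutrophil gene S100a8 was at 6.23, 6.72, 8.88 and 7.88 and Il1b at 6.54, 7.14, 8.02 and 7.04. In wt array 4, which had the highest acute phase median of wt, the macrophage marker mean was 8.88 in the first run, the lowest of wt. There Il1b was at 6.15, also the lowest of wt, and S100a8 was at 7.19, within the range of the other wt arrays. The part of these cells in the acute phase values was not tested.

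Against 3aKO, 2 of 19 acute phase members passed the test in 3bKI, both higher. The acute phase median was 0.28 with 17 of 19 above 0, beside 0.03 for all genes, 0.11 for complement and 0.0047 for coagulation. In all, 3 of 47 members passed, Serpina3n and Lcn2 higher and Klkb1 lower, beside 9.18% of all genes, so that the members held no more calls than genes at large. At an unadjusted p under 0.05, 11 members were higher by limma, 8 acute phase, 2 complement and 1 coagulation, beside 13.4% of all genes.

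Serpina3n had 11.34, 11.05, 10.93, 10.85 and 11.18 in 3aKO and 11.60, 11.79, 12.01 and 11.93 in 3bKI. All 4 tumours were above all 5 livers. It rose by 0.76 ± 0.12, 1.69-fold (limma, adjusted p = 0.013), and by 0.70 ± 0.13 without 3bKI array 3. The call was lost in 4 of 18 alternatives, with sex as a covariate (limma, adjusted p = 0.0729), in female arrays (0.0984), with the replicate number as a block (0.0712) and in the fit on 3 groups (0.075). Lcn2 had 8.64, 6.06, 10.03, 6.78 and 9.01 in 3aKO and 9.90, 10.999, 13.32 and 10.91 in 3bKI. The lowest tumour overlapped the highest liver. It rose by 3.18 ± 0.87, 9.06-fold (limma, adjusted p = 0.0496), and this call at the edge of the threshold was lost in 14 of 18 alternatives, with adjusted p from 0.0422 to 0.216. Without 3bKI array 3 the difference was 2.50 ± 0.82 (limma, adjusted p = 0.0996).

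The serum amyloid pair gave large but uneven differences. Saa1 had 8.85, 8.77, 10.26, 8.22 and 10.21 in 3aKO, and 3bKI was higher by 2.03 ± 0.73 (limma, adjusted p = 0.104). Saa2 was higher by 2.33 ± 0.79 (limma, adjusted p = 0.0883). Tumours 1 and 2 lay within or next to the 3aKO range for both genes, and without 3bKI array 3 the differences were 1.31 ± 0.59 and 1.52 ± 0.61. Hp (0.28 ± 0.10) and Hpx (0.27 ± 0.08) were smaller in size but separate from 3aKO, so that with Serpina3n 3 of 47 members were wholly higher, beside 6.03% of all genes. Apcs, serum amyloid P, was higher by 0.90 ± 0.28 (limma, adjusted p = 0.0721). Cp was higher by 0.35 and did not pass the test, and its other probe sets gave 0.04 to 1.43. Fga differed by 0.19 ± 0.09, Fgb by 0.0096 ± 0.09 and Fgg by -0.0068 ± 0.08.

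Klkb1 had 11.80, 11.91, 11.82, 11.91 and 11.82 in 3aKO, a narrow band above all 4 tumours. It fell by 0.53 ± 0.09, 1.44-fold (limma, adjusted p = 0.0145), and by 0.50 ± 0.10 without 3bKI array 3 (limma, adjusted p = 0.0385). The call was lost in 3 of 18 alternatives, with sex as a covariate (limma, adjusted p = 0.0935), in female arrays (0.127) and with the replicate number as a block (0.0722). The attack complex component C8g was the other member with all tumours lower, at -0.18 ± 0.07, and such genes made up 8.95% of all. F11, the factor that prekallikrein shares its gene family with, was higher by 0.62 ± 0.18 (limma, adjusted p = 0.0558). F2 differed by 0.03 ± 0.07 and Serpinc1 by -0.03 ± 0.07.

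These comparisons stood beside wider differences in the tumours. Of 12 hepatocyte markers, 10 were below 0 in 3bKI against 3aKO, and Cps1, Tdo2 and Hpd passed the test. Marker means were 13.07 to 13.28 in 3bKI and 13.19 to 13.47 in 3aKO. Of 10 stellate cell markers, 9 were above 0 and Col1a1, Col1a2, Col3a1 and Timp1 passed, with means of 7.98 to 8.55 against 7.40 to 7.96. Neutrophil marker means were 5.20 to 5.85 in 3bKI and 5.02 to 5.53 in 3aKO. The actin 3′ minus 5′ difference was 0.70 to 0.87 in 3bKI and 1.06 to 1.35 in 3aKO. Their part in the member values was not tested.

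**Figure D4:**
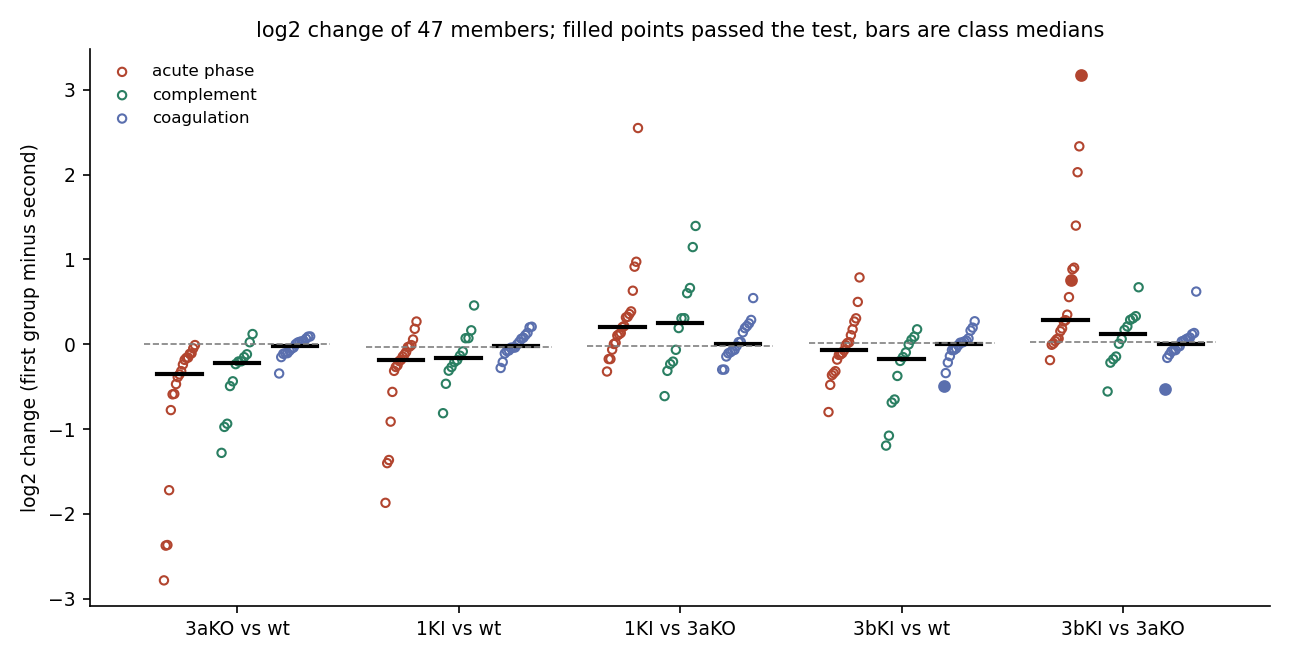
Each point is 1 of the 47 members in 1 comparison; the vertical axis is the log2 change of the first group minus the second, filled points passed the test, black bars are class medians and dashed lines the median of all genes. The acute phase bar is at -0.36 for 3aKO vs wt and 0.28 for 3bKI vs 3aKO, and only 4 points are filled.

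Sex, read from the arrays after the data were seen, separated a part of the complement class in normal liver. Over the 12 wt and 3aKO livers, 6 male and 6 female, with genotype as a term, 5 of 12 complement members passed the test and 0 acute phase and 0 coagulation members did. That is 5 of the 47 members beside 2.53% of all genes. In the other classes 2 of 19 acute phase and 3 of 16 coagulation members were higher in males at an unadjusted p under 0.05 by limma. Over all genes this held for 1382 of 18193. The male livers were higher in 4 components of the attack complex and lower in Mbl2.

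C8b, the beta chain of C8, had male values of 12.04, 12.31, 12.44 and 12.48 in wt and 11.99 and 11.05 in 3aKO. The female values were 10.73, 9.68 and 9.19 in wt and 9.49, 9.38 and 9.55 in 3aKO. No female liver reached the lowest male liver. C8b was higher in males by 2.28 ± 0.23, 4.87-fold (limma, adjusted p = 0.000152). C6 had male values of 10.56, 11.04, 11.08 and 10.49 in wt and 10.85 and 8.84 in 3aKO, and female values of 8.10 to 8.44 in wt and 7.40 to 8.65 in 3aKO. It was higher in males by 2.17 ± 0.31, 4.49-fold (limma, adjusted p = 0.00268), and the sexes did not overlap. C8b and C6 were thus 2 of 47 members wholly higher in males, beside 1.07% of all genes.

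C8a, the alpha chain, was higher by 2.54 ± 0.39, 5.83-fold (limma, adjusted p = 0.00388). One female wt liver, at 11.90, overlapped the lowest male, at 11.72. C9 was higher by 0.91 ± 0.17 (limma, adjusted p = 0.0145), with 1 female wt liver at 13.39 among the males. Mbl2 had male values of 13.25, 13.01, 12.73 and 13.09 in wt and 12.93 and 13.19 in 3aKO, and female values of 13.36 to 13.53. It was lower in males by -0.40 ± 0.09 (limma, adjusted p = 0.0312) and was the 1 member wholly lower in males, beside 1.19% of all genes. The gamma chain C8g, whose gene is not linked to the other C8 chains, differed by -0.06 ± 0.06.

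Within genotypes the same test called 2 members in wt, C6 and C8b, and 0 in 3aKO, where 2 males stood against 3 females. The shares of all genes called within each genotype are not given here. The fibrinogen chains did not pass the test, with Fga by 0.26 ± 0.08 (limma, adjusted p = 0.114), Fgb by 0.19 ± 0.08 and Fgg by 0.16 ± 0.08. The tumours followed the order in part. In 1KI the males were at 11.71, 10.75 and 10.63 for C6 and the females at 8.63 and 9.24. For C8b the 1KI males were at 11.98, 10.71 and 10.48, and the females at 10.53 and 11.08, so the sexes overlapped. In 3bKI the 3 female tumours were at 8.09 to 9.95 for C6, and array 2, of unclear sex, was at 7.56.

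**Figure D5:**
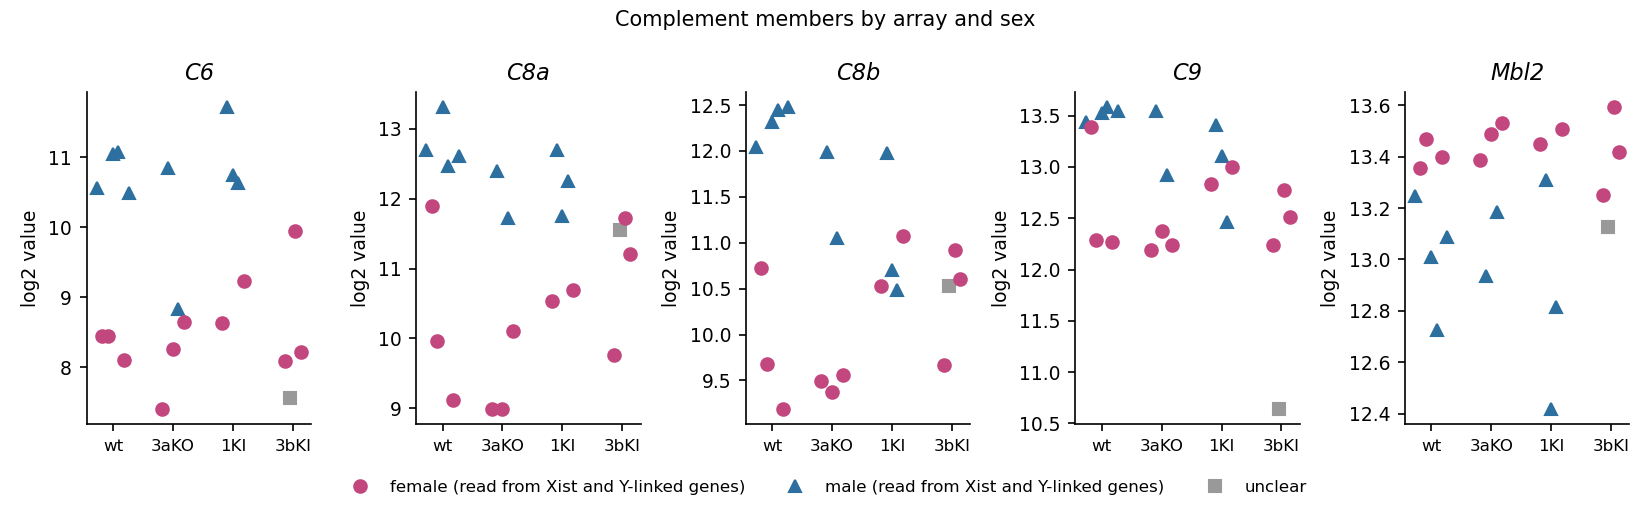
Each panel is 1 complement member, each point 1 array on the log2 scale, by group and by the sex read from Xist and Y-linked genes; wt, 3aKO and 1KI are from the first run, 3bKI from the second. Male normal livers are higher for C6, C8a, C8b and C9 and lower for Mbl2, and the 3bKI array of unclear sex is lowest for C9 at 10.64.

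Genes of the same pathways outside the 47 were read from further lists, and their calls stand beside 0.242% of all genes in 1KI against wt, 2.07% in 3bKI against wt and 9.18% in 3bKI against 3aKO. Of 13 measured acute phase genes on a further list, 0 passed limma's test in any of the 5 comparisons. The gene of lowest p was Fgl1, a fibrinogen-like hepatocyte product, against wt in 3aKO (-0.91 ± 0.35, limma, adjusted p = 0.65) and in 1KI (-1.13 ± 0.42, limma, adjusted p = 0.194). It was Tifa in 1KI against 3aKO (-0.57 ± 0.15, limma, adjusted p = 0.206). In 3bKI it was Cd14, a co-receptor for bacterial lipopolysaccharide, at 1.39 ± 0.36 against wt (limma, adjusted p = 0.0671) and 1.56 ± 0.44 against 3aKO (limma, adjusted p = 0.0542), with every tumour above every normal liver. Of 18 further complement genes, 1 passed, Hc, which encodes C5 and fell by 0.91 ± 0.13 in 3bKI against wt (limma, adjusted p = 0.0112). Of 19 further coagulation genes, Anxa5, a phospholipid-binding anticoagulant, rose against wt by 2.11 ± 0.39 in 1KI (limma, adjusted p = 0.0483) and by 1.93 ± 0.26 in 3bKI (limma, adjusted p = 0.00774). Plat, tissue plasminogen activator, rose in 3bKI by 0.64 ± 0.11 against wt. Against 3aKO, Plat and the urokinase receptor Plaur rose and Ggcx, the carboxylase that modifies vitamin K-dependent clotting factors, fell by 0.56 ± 0.09 in 3bKI.

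Of 11 negative acute phase and other plasma proteins, 0 passed limma's test in the 5 comparisons, and their medians ran from -0.03 to 0.02. Of 16 acute phase cytokines and receptors, Il1rap, a subunit of the IL-1 receptor, fell by 1.16 ± 0.24 in 3bKI against wt (limma, adjusted p = 0.0341). Against 3aKO, Il1a, Tnfrsf1a and Lif rose in 3bKI and Il6ra, the IL-6 receptor, fell by 0.75 ± 0.20 (limma, adjusted p = 0.0445). Of 17 genes of acute phase transcription control, Cebpa, which encodes C/EBP alpha, fell by 0.43 ± 0.09 in 3bKI against 3aKO (limma, adjusted p = 0.027), and Stat3 had the lowest p in 3aKO against wt, at -0.37 ± 0.16 (limma, adjusted p = 0.659).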

How the data were processed

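Total RNA was extracted with Trizol and 5 ug of it gave biotin-labelled cRNA for Affymetrix arrays, per the labels' protocols. The deposited values are log2 expression per probe set, normalized by the authors in 2 separate runs by a method not given in the sources used here. The 33 columns are 21 arrays, 12 of them in both runs, and depth does not apply to arrays: their number limits the precision. Of 45101 probe sets, 34945 carried 1 symbol, and each gene took its probe set of highest mean over all columns. limma 3.58.1 in R 4.3.3 (lmFit and eBayes) compared the 2 groups of each of 5 comparisons, with Benjamini-Hochberg adjustment over 18193 genes and calls at an adjusted p under 0.05. The test was tried on simulated data first. Tables were made with Python 3.11.15 and pandas 2.3.3.

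Sex was read as female where Xist was above 10 and as male where the mean of Eif2s3y and Kdm5d was above 5. The members, classes and lists were chosen with earlier results of these data known. Named members were those called, the lowest p and largest differences in each class, and a fixed set (Saa genes, fibrinogen chains, Mbl1, Mbl2, F2, Serpinc1). From the further lists the text names the genes that were called or the one of lowest p. Promoters are RefSeq's on GRCm38.p6. Alternatives were the replicate number as a block, quantile normalization, median centring, a filter on low genes, the mean of probe sets, a fit on 3 groups, a trended and robust fit, sex, other class choices, and each array left out.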

Additional observations from a re-analysis of the deposited data

Results flagged for a closer look

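In groups of 4 to 10 arrays, 7 of 188 combinations of a member and a group held an array far from the rest of its group, where chance alone gives about 1 in 20. Saa3, a serum amyloid made also by macrophages, was at 11.14 in wt array 4, with the next wt array at 9.43. Saa3 was also at 11.97 in 3bKI array 3, where the next tumour was at 9.01. In the same tumour Proc, which encodes the anticoagulant protein C, was the lowest of the group at 12.47, with the next at 12.63. Apcs was at 13.01 in 3bKI array 1, below the next tumour at 13.71. Serpinf2, the main inhibitor of plasmin, was at 13.39 in 3bKI array 2 against 12.87 in the next. In 1KI array 4, F13b, a carrier subunit of factor XIII, was at 11.12 against 11.61 in the next, and Klkb1 was at 11.09 against 11.63.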

How the results depend on the processing

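The number of arrays limits these results, and the normalization method is unknown. The acute phase medians kept their direction under all alternatives for 3aKO vs wt (-0.56 to -0.12), 1KI vs wt (-0.30 to -0.03), 1KI vs 3aKO (0.02 to 0.32) and 3bKI vs 3aKO (0.19 to 0.56), but not for 3bKI vs wt (-0.19 to 0.14). For 1KI vs 3aKO it was 0.052 without 1KI arrays 3 and 4, 0.0185 in female and 0.32 in male arrays. For 3bKI vs 3aKO it was 0.56 when the fibrinogen chains, Saa4 and Crp left the class and Cfb joined it. The median of complement and coagulation members together was -0.11 for 3aKO vs wt, and 0.0149 in female and -0.22 in male arrays. It was -0.04 for 1KI vs wt and 0.07 in female arrays. For 1KI vs 3aKO it was 0.03, and 0.0785 after quantile normalization, 0.0011 after centring, 0.0428 with sex as a covariate, 0.0477 without 1KI arrays 3 and 4, -0.057 in male arrays, and 0.0091 to 0.0454 without single arrays. For 3bKI vs wt it was -0.06, and above 0 after quantile normalization (0.05), with sex as a covariate (0.0015) and in female arrays (0.0015). For 3bKI vs 3aKO it was 0.04, and 0.14 after quantile normalization, and its direction turned after centring (-0.02), with sex as a covariate (-0.02), in female arrays (-0.02) and without 3bKI array 3 (-0.02), with -0.0227 to 0.0809 without single arrays.

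Counts of called members were 0 for 1KI vs wt and 1 in the fit on 3 groups. For 3bKI vs wt the count was 1, and 0 after quantile normalization, with sex as a covariate and in female arrays, and 0 to 1 without single arrays. For 3bKI vs 3aKO it was 3, 5 without the lowest 40% of genes, 0 with sex as a covariate or in female arrays (both without 3bKI array 2, since its sex is unclear), and 2 to 6 without single arrays. With the replicate number as a block it was 0. The numbers do not pair the arrays: same-numbered arrays correlated at -0.47 to 0.30 for 3aKO vs wt and at 0.06 to 0.28 for 3bKI vs 3aKO, where 3 of 4 pairs were above 0.1. The block brought no member past the threshold or back in the other 4 comparisons. Male against female calls were 5 over all normal livers, 2 within wt and 0 within 3aKO, with the share of all genes given for the first only. Serpina3n kept its call against 3aKO in 14 of 18 alternatives and Klkb1 in 15 of 18. The share of higher calls over all genes moved with centring, from 531 higher and 1140 lower to 328 and 1638 for 3bKI vs 3aKO, and from 199 and 178 to 197 and 548 for 3bKI vs wt. The cause was not tested.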
